A study of Mus musculus with 10 samples.

Results

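The T-cell receptor was represented by 34 of the 41174 non-control probes on a mouse oligonucleotide array hybridised with RNA from spontaneous lymphomas. A probe belonged to the set if its gene name began with a locus prefix (Tcrd, Tcrg, Tcrb or Tcra) or a variable-segment prefix (Trdv, Trgv, Trbv or Trav), which took in 10 probes. It also belonged if its description named the receptor followed by a chain, which took in 31 probes, 7 of them by both routes. By chain, 17 probes were for α, 12 for β, 3 for γ and 2 for δ. By segment, 7 were for constant regions, 23 for variable regions and 4 for joining or unspecified parts, as told by names, descriptions, coordinates and positions in the transcript records.

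The lymphomas came from 5 mice heterozygous for the C/EBPβ LIP allele (+/L) and from 5 wild-type mice (+/+), with 1 array and 1 tumour per mouse. C/EBPβ is a transcription factor, and LIP is its short isoform, which lacks most of the activating part. The cohort was followed past 25 months, mice were killed once a lymphoma could be felt, and the tumour RNA was labelled with Cy3. The +/L mice were killed at 18 ± 4.06 months (SD, n = 5, range 11 to 21) and the +/+ mice at 24.9 ± 3.47 months (SD, n = 5, range 20 to 29), so that age differed along with genotype. No further allele or agent is named in the labels, and no normal lymphoid tissue was among the arrays.

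The T-cell receptor is the antigen receptor of T cells, a pair of either α and β or γ and δ chains. Each chain is encoded by variable, joining and constant gene segments, with a diversity segment added in β and δ, and the variable part is joined by DNA rearrangement during T-cell development. Transcripts of a chain therefore end in a shared constant region whichever variable segment was chosen, and the descendants of a T-cell clone share its joined segments. The chains carry no signalling domain of their own and signal through the invariant CD3 and ζ chains.

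The constant-region probes read the shared part of each chain, and the sequences of 5 of the 7 are given here because the level of a chain rests on them. Trbc1 and Trbc2, the constant genes of the β locus, are near-identical copies, so cross-hybridisation was possible and their levels are treated as uncertain between the copies. How well each probe matches the other copy was not computed. The capitals mark only the longest run, 16 bases, that the Trbc1 probe and the middle Trbc2 probe have in common.
Trbc1: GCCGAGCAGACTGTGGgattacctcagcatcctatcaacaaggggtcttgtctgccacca
Trbc2 start: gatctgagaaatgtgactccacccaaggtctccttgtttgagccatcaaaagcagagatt
Trbc2 middle: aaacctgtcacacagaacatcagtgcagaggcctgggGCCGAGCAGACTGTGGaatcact
Trac coding: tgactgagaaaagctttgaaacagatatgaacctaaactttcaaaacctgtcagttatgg
K02899: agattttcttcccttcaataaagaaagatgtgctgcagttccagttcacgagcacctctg

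In mm9, the build of the files, the Trbc1 probe (A_51_P210310) spans chr6:41488583-41489260 across a splice, and the Trbc2 probes named start (A_51_P407832, chr6:41496731-41496790), middle (A_51_P478172, chr6:41497058-41497622) and end (A_52_P102846, chr6:41498256-41498315) follow one another along the record U07661. The α constant region, Trac, was read by a coding probe (A_52_P112591, chr14:54841807-54842701, spliced) and by a probe near the end of the record U07662 (A_51_P484329, chr14:54843713-54843772). The γ constant region was read by A_51_P354616 (record K02899, chr13:19397039-19399117, minus strand), whose record is described as an aberrantly rearranged γ chain. The array held no δ constant probe under this rule.

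Variable and joining probes are shown next where a tumour stood out at them or where the letters tell what the probe reads. Capitals mark codons for tyrosine, any residue and cysteine in a frame without stop codons, read on the probe's strand, a pattern near the end of many receptor variable domains. It was found in 4 of the 23 variable probes, in 2 of the 4 joining or unspecified probes, in 0 of the 7 constant probes and in 2.95% of all non-control probes.
X67128: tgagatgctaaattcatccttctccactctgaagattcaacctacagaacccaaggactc
Trbv1: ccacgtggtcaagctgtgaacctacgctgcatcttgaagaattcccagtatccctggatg
M31648: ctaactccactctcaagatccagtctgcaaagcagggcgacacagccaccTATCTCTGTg
Trbv5: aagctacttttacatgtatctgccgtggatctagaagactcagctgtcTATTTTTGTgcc
AF012177: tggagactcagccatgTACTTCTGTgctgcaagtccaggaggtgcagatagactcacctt
Trbv5 downstream: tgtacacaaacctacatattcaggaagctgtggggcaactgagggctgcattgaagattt
AK038154: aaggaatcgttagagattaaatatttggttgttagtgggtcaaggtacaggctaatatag
Trav12n-2: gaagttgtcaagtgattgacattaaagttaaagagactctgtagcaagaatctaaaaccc

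The first 4 of these are β variable probes on chromosome 6, at chr6:41091568-41091627 for X67128 (A_52_P557517), chr6:40841637-40841696 for Trbv1 (A_52_P74680), chr6:41085544-41085603 for M31648 (A_52_P184629) and chr6:41012732-41012791 for Trbv5 (A_52_P1078018). AF012177 (A_52_P31751) is an α probe whose file coordinates run from chr14:54324155 in the variable cluster to chr14:54792533 in the joining cluster, so that its 60 bases cross a joint. The probe called Trbv5 downstream here (A_51_P117933, chr6:41012830-41012889) carries the name Tcrb-J in the files but lies just past the Trbv5 probe. AK038154 (A_51_P349459, chr14:53917655-53917714) starts at base 3472 of its clone. The Trav12n-2 probe (A_52_P419539, chr14:54825886-54825945) lies by its coordinates on the constant side of the joining cluster, although its record is described as a variable-region chain. Exon, intron and UTR annotation in mm9 was not used here.

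Levels are given as log2 signal relative to the 75th percentile of the same array, so that 0 is the level of that percentile and a step of 1 is a doubling, and different probes are never set against each other in level. A probe was well above background where the scanner software flagged its spot so, and between 48.0% and 66.7% of the spots on each array passed, controls left out. The array of +/L mouse 20 stood apart, with 5.15% of all probes well above background on it alone, against 0.11% to 1.01% for each other array. Xist, the RNA of the inactive X chromosome, was well above background in 7 of 7 arrays labelled female and in 2 of 3 labelled male (+/L mouse 20 and +/+ mouse 11), and those 2 lacked the Y-linked transcripts examined. T-cell and B-cell markers were both measurable, with 17 of 17 and 11 of 11 genes well above background on at least 3 arrays. Precision is limited by there being 10 arrays.

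Of the 34 receptor probes, 26 were well above background on at least 3 of the 10 arrays, as were 64.1% of all probes, and these 26 were tested. On all 10 arrays 12 receptor probes were well above background, as were 43.5% of all probes. These 12 were the 6 α and β constant probes, the α probes AK037357, Trav14-2 and Trav14d-3/dv8, and the β variable probes M31648, Trbv5 and X67128. A further 4 probes (AK043253, Trav13d-4, Trav17 and Tcrg-V2) were above background on no array, as were 22.5% of all probes, and 4 more on exactly 1 array, as were 9.05%. AK043253, Trav13d-4, Trav17 and Tcrg-V2 start at bases 3241, 2032, 2023 and 2605 of their records. Whether they read the variable segments themselves was not checked, so their lack of signal does not show that the segments were unused. The 8 untested probes were all variable probes: 4 α, 1 β, 2 γ and 1 δ.

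The α and β constant regions were measured in every tumour and moved together from tumour to tumour. Trbc2, read at its end, was at 3.04 in mouse 20, 6.09 in 866, 6.49 in 688, 5.21 in 23 and 5.88 in 517 among +/L tumours. In +/+ tumours it was at 5.70 in mouse 40, 4.86 in 11, 6.58 in 101, 5.16 in 17 and 7.36 in 19. Mouse 20 was the lowest and mouse 19 the highest, with the other 8 tumours between 4.86 and 6.58, and the genotypes overlapped. Trbc1 gave the same ends, at 2.44, 5.43, 5.57, 4.60 and 5.29 in +/L mice 20, 866, 688, 23 and 517. The +/+ mice 40, 11, 101, 17 and 19 had 4.71, 4.10, 5.66, 4.04 and 6.36. The other Trbc2 probes gave this order of extremes too: the start probe ran from 1.42 in mouse 20 and 3.13 in mouse 11 to 4.76 in mouse 688 and 5.51 in mouse 19, and the middle probe from 2.27 in mouse 20 and 4.13 in mice 11 and 17 to 5.62 in mouse 688 and 6.32 in mouse 19. For Trbc1, next above mouse 20 stood mouse 17 at 4.04, and next below mouse 19 stood mouse 101 at 5.66, so that both extremes were set off from the rest.

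The coding probe of Trac, the constant region of the α chain, was at -1.64, 1.13, 1.15, 0.06 and 0.21 in +/L mice 20, 866, 688, 23 and 517. Among +/+ tumours it was at 0.39 in mouse 40, 0.17 in 11, 1.34 in 101, -0.26 in 17 and 2.24 in 19. Again mouse 20 was lowest and mouse 19 highest. The Trac end probe ran from 0.70 in mouse 20 and 1.86 in mouse 17 to 3.40 in mice 866 and 101 and 4.07 in mouse 19. Over the 6 α and β constant probes, mouse 20 was the lowest tumour in 6 of 6 (it was lowest at 14.7% of all tested probes) and mouse 19 the highest in 6 of 6 (highest at 4.98% of all tested probes). The distance between them was 3.36 to 4.32 log2 units, or 10.3 to 19.9-fold. In such bulk tumour RNA, fewer T cells and less receptor RNA per T cell cannot be told apart. The T-cell marker score, the mean over 17 genes of the level minus the gene's mean, also ran from -1.80 in mouse 20 to 1.52 in mouse 19, with mouse 20 lowest at 15 and mouse 19 highest at 15 of the 17 genes. The part of T-cell content in the receptor levels was not tested.

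The α and β chains did not keep exactly the same distance in every tumour. Set against each probe's own median over the 10 tumours, the 4 β constant probes of mouse 20 averaged -2.68 (range -2.75 to -2.56) and its 2 α constant probes -1.83 (-1.94 and -1.72). In mouse 11 the β probes averaged -0.92 and the α probes -0.07, and in mouse 517 the order was turned, with β at 0.28 and α at -0.20. These distances describe 6 probes and were not tested.

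The γ constant probe had another order of tumours. It was at -4.16 in mouse 20 and -5.65 in mouse 23, both not well above background, and at -2.30, -3.43 and -3.74 in +/L mice 866, 688 and 517. Its +/+ levels, in mice 40, 11, 101, 17 and 19, were -3.66, -3.32, -2.68, -2.54 and -3.91. Mouse 866 was the highest, followed by 17 and 101, and mouse 19, highest for α and β, was the lowest of the +/+ tumours. The γδ T-cell marker genes (Sox13, Blk and Cd163l1 of a list of 4) scored highest in mouse 17, at 0.96, and lowest in mouse 11, at -1.28, with mouse 866 at -0.35. Blk, which is also in the B-cell list, was lowest in mouse 866, at -2.29 against a median of 0.02. The other genes of the γδ list were above their medians there, Sox13 at -3.46 against -3.89 and Cd163l1 at -0.47 against -1.80.

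Different tumours were highest at different variable probes, and whether this reflects the segments chosen by T-cell clones was not tested. At 7 of the 23 variable probes a tumour stood more than 2 log2 units above the median of the 10 tumours while well above background, as at 19.3% of all probes. Of the 7 probes, 3 had mouse 20 on top (13.3% of all probes), 1 had mouse 866 (0.974%) and 3 had mouse 19 (0.19%). The count was 15 at a threshold of 1 log2 unit (38.2% of all probes) and 3 at a threshold of 3 (11.3%). It was 0 both with normexp background correction and quantile normalization and in the authors' deposited table. At 4 of the 7 (Trbv5 downstream, AK038154, AK050604 and Trav12n-2) the median itself came from tumours not well above background, so the distance there is no measured fold. The other 3 were X67128, Trbv1 and M31648.

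X67128, a rearranged β chain read in its variable segment, was high in mouse 866. Among +/L tumours it was at -3.36 in mouse 20, 0.19 in 866, -2.61 in 688, -3.07 in 23 and -2.59 in 517. The levels in +/+ mice 40, 11, 101, 17 and 19 were -2.07, -1.62, -2.33, -2.33 and -1.77, and all 10 values were well above background. Mouse 866 stood 2.53 above the median and 1.82 above the next tumour, mouse 11, while the β constant probes of mouse 866 were 0.43 above their median. Taken relative to the β constant probes of the same tumour, it was 1.96 above the median of tumours in mouse 866, followed by 1.52 in mouse 20 and 1.5 in mouse 11. Relative values of mouse 20 are raised by its β constant probes, which averaged -2.68 against their medians. The lowest level called well above background on its array was -3.84, and X67128 lay close to it, so this relative value is uncertain. The distance in mouse 866 was 1.78 with normexp and quantile normalization and 1.56 in the authors' deposited table. Mouse 866 was also highest at Trbv5, at -0.98, with mouse 19 next at -1.44, and at Trbv5 upstream and M10093. M10093 is described as a β variable region and was counted as one. Its file coordinates (chr6:41490268-41490327) lie just past the Trbc1 probe, so its class is uncertain.

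Trbv1, the first variable segment of the β locus, was high in mouse 19. It was at -3.45, -2.15, -1.84, -3.96 and -2.35 in +/L mice 20, 866, 688, 23 and 517, of which mouse 23 was not well above background. Among the +/+ tumours it was at -1.95 in mouse 40, -2.08 in 11, -3.07 in 101, -2.57 in 17 and 0.40 in 19. Mouse 19 stood 2.65 above the median and 2.24 above mouse 688, the next tumour, with its β constant probes 1.41 above theirs. The 9 other tumours lay between -3.96 and -1.84, and the Trbv1 distance was 1.75 in the authors' deposited table. Relative to the β constant probes, Trbv1 in mouse 19 was 1.11 above the median of tumours, below the 1.36 of mouse 20. The value of mouse 20 is uncertain, since its Trbv1 level lay close to -3.84, the lowest called well above background on its array.

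M31648, a β V-J-C transcript probed in its variable segment, was at -1.98, -1.27, -0.70, -1.84 and -1.94 in +/L mice 20, 866, 688, 23 and 517. For +/+ mice 40, 11, 101, 17 and 19 the levels were -1.28, -2.30, -1.66, -0.48 and 0.57. Mouse 19 was again highest, with mouse 17 next, although the β constant probes of mouse 17 were 0.79 below their median. In mouse 19 the β constant probes were 1.41 above their median. Relative to the β constant probes of the same tumour, M31648 was 0.51 above the median of tumours in mouse 19. It was 1.67 above in mouse 17 and 2.05 above in mouse 20.

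The 8 α variable probes tested were all highest in mouse 19. Taken relative to the α constant probes of the same tumour, they were -0.61 to 0.19 from the median of tumours in mouse 19, except Trav12n-2 (1.41). Mouse 20, well above background at 6 of the 8, was highest at those 6 in these relative values, at 0.85 to 3.44. Its α constant probes, which averaged -1.83 against their medians, raise these values. Among the 15 variable probes tested, of all chains, mouse 19 was highest at 10 (4.98% of all tested probes) and mouse 866 at 4 (7.01%). Mouse 11 was lowest at 8 (10.2%). The 4 of mouse 866 are not independent segments, since Trbv5 and Trbv5 upstream lie side by side and the class of M10093 is uncertain. Trav14d-3/dv8, an α segment that can also join to δ and was measured on every array, was at -2.03, -0.26, -0.24, -1.55 and -0.42 in +/L mice 20, 866, 688, 23 and 517. In +/+ mice 40, 11, 101, 17 and 19 it was at -1.33, -1.66, -0.05, -1.51 and 0.83, which puts mouse 20 lowest and mouse 19 highest as in the constant region. The other α variable probes tested had the same highest tumour, mouse 19: Trav13-2 reached -0.98, Trav16d/dv11 -1.95, Trav6d-6 -1.69, Trav7-6 -3.17 and X03860 -2.79 there. Their lowest tumour was mouse 11, at -3.63, -5.63, -3.80, -6.35 and -4.34 in the same order, of which Trav16d/dv11 and Trav7-6 were not well above background. Trav14-2, whose listed records include that of Trav14d-3/dv8, ran from -2.61 in mouse 23 to -0.29 in mouse 19, so these probes share targets and are not independent. Trav12n-2 was well above background in 3 tumours, at -2.12 in mouse 19, -3.05 in mouse 517 and -5.30 in mouse 17. The other 7 lay between -7.33 and -4.78 with no signal well above background.

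Mouse 20 was high at probes that read below background elsewhere. Trbv5 downstream was at -1.82 in mouse 20, and the other 9 tumours lay between -8.03 and -5.55, none well above background. AK038154, an α variable probe, was at -2.92 in mouse 20 and between -8.16 and -5.84 in the others, and AK050604, a γ variable probe, at -3.34 against -7.17 to -5.20. The neighbouring Trbv5 probe did not share this, since mouse 20 was there at -3.05, below the median of -2.18. These 3 probes were well above background on the array of mouse 20 alone, as were 5.15% of all probes, and mouse 20 was highest at 0 of the 15 variable probes tested, against 28.3% of all tested probes. Whether these values are part of the pattern of that array was not tested.

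Few δ and γ variable probes gave signal. AK038197, described as a δ variable region, was well above background in +/L mice 866, 688 and 517, at -4.31, -4.22 and -4.25, and in +/+ mice 17 and 19, at -5.67 and -4.52. Mouse 688 was highest but only by 0.03. Trdv2-1 was well above background in mouse 866 alone, at -5.19, and Tcrg-V2, whose probe starts at base 2605 of its record, in none.

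The joining and unspecified probes included AK037357 (A_52_P480620), a transcript between the α variable cluster and the constant region, printed as 10 spots per array. The SD between its spots on an array was 0.05 to 0.11 log2 units. Its levels were -1.81, 2.75, 0.97, 1.30 and 3.04 in +/L mice 20, 866, 688, 23 and 517, and -0.03, 0.62, 1.47, 1.01 and 3.06 in +/+ mice 40, 11, 101, 17 and 19. Mice 19 and 517 were highest and mouse 20 lowest, and the genotypes overlapped. AF012177, the probe across a joint, was well above background in 9 of 10 tumours, from -4.46 in mouse 40 to -2.0 in mouse 19, with mouse 23 at -4.56 as the exception. AK018014, named as a β joining region, was highest in mouse 19 at -2.09 and mouse 517 at -2.42. D12895, a partial α transcript, was well above background in mice 20, 866 and 19, at -2.99, -5.24 and -4.26.

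The genotype comparison asks whether the LIP allele went with other receptor levels in lymphomas. None of the 26 tested receptor probes passed an adjusted p of 0.05 in limma with Benjamini-Hochberg adjustment over the 26410 probes tested, and 0 of all tested probes did (0%). At an unadjusted p under 0.05 there were 0 of 26 receptor probes, against 2103 of all (7.96%). In 17 of 26 the mean was lower in +/L, as at 49.5% of all tested probes, with a median difference of -0.16 against 0.01 over all. That count was 8 without mouse 19, 11 without mouse 23 and 11 with the slide as a block, and it was 15, 22 and 20 with the median scaling, with normexp and quantile normalization and in the authors' deposited table. The median difference turned to 0.11 with the slide as a block, 0.17 without mouse 19 and 0.011 without mouse 23, and was -0.82 with age as a covariate. The genotypes overlapped at 26 of 26 receptor probes, and they did not overlap at 1.79% of all tested probes.

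All 7 constant probes had lower means in +/L (49.5% of all tested probes), by amounts within the spread between tumours. In the authors' deposited table Trbc1 (0.039) and Trbc2 middle (0.025) were higher instead. Without mouse 20 the count was 4 of 7, as it was without mouse 19. The Trbc2 probes share a record, as do the Trac probes, so the 7 are not independent. Trbc2 end averaged 5.34 ± 1.37 (SD, n = 5) in +/L tumours and 5.93 ± 1.03 (SD, n = 5) in the +/+ ones, a difference of -0.59 (SE 0.69, limma adjusted p = 0.86, exact two-sided permutation p = 0.51). Trac coding averaged 0.18 ± 1.13 (SD, n = 5) in +/L and 0.78 ± 1.0 (SD, n = 5) in +/+ tumours, a difference of -0.59 (SE 0.61, limma adjusted p = 0.83, exact permutation p = 0.42). Trac end differed by -0.53 (SE 0.56), Trbc1 by -0.31 (SE 0.66, limma adjusted p = 0.93), Trbc2 start by -0.31 and Trbc2 middle by -0.30 (SE 0.68 each), and the γ constant probe by -0.64 (SE 0.55, limma adjusted p = 0.80, 3 of 5 +/L and 5 of 5 +/+ tumours well above background). The γ constant probe fell short in mice 20 and 23, where the lowest level called well above background was -3.84 and -3.67. On the other arrays that lowest level lay between -5.92 and -4.31, and mouse 19 passed at -3.91. The counts of tumours well above background are therefore not on an equal footing. The genotypes overlapped at 6 of 6 α and β constant probes.

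These differences depended on single tumours. Without mouse 20 the differences of Trbc1, Trbc2 start and Trbc2 middle turned to 0.25, 0.29 and 0.30, and without mouse 19 to 0.04, 0.05 and 0.05. Within slide 1 the 7 constant probes differed by -0.69 to -0.21 and within slide 2 by -1.38 to 0.92. Within slide 3, the arrays without a barcode in the header, they differed by -0.88 to 0.99. With slide as a block they differed by -0.41 to -0.07 (limma adjusted p 0.91 to 0.99). With age as a covariate they differed by -1.67 to -1.02 (limma adjusted p 0.86 to 0.91) and the ages of the genotypes overlap only between 20 and 21 months. Without mice 20 and 11, whose labelled sex did not match Xist, they differed by -0.59 to 0.09.

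The lowest p among the receptor probes belonged to variable, joining and γ constant probes. Higher in +/L were AK038197 (0.72, SE 0.40, limma unadjusted p = 0.10, adjusted p = 0.68), Trbv5 upstream (0.52, limma adjusted p = 0.76) and AK018014 (0.61, limma adjusted p = 0.82). Lower were Trbv1 (-0.90, SE 0.65, limma adjusted p = 0.74), the γ constant probe K02899 and M31648 (-0.52, limma adjusted p = 0.82). None of these 6 passed, and AK018014 turned to -0.016 with normexp and quantile normalization and in the authors' deposited table, and Trbv5 upstream to -0.19 with age as a covariate. The 8 α variable probes tested differed by -0.17 (Trav12n-2) to 0.43 (Trav7-6), with 4 higher and 4 lower, and the 6 β variable probes by -0.90 (Trbv1) to 0.52 (Trbv5 upstream), with 2 higher and 4 lower. X67128, high in mouse 866, differed by -0.26 (SE 0.59). The unspecified α probes AF012177, AK037357 and D12895 differed by -0.25, 0.02 and -0.02.

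Of the invariant partners of the receptor chains, Cd3e was set against the β constant region tumour by tumour. CD3ε, encoded by Cd3e, is a subunit of the complex that carries the signal of the receptor, and was at -1.24, -0.09, 0.52, -0.35 and -0.43 in +/L mice 20, 866, 688, 23 and 517. The +/+ mice 40, 11, 101, 17 and 19 were at 0.24, -0.55, 1.06, -0.25 and 1.82, so that mouse 20 was again lowest and mouse 19 highest. Across the 10 tumours Trbc2 end and Cd3e correlated with Pearson's r = 0.895 (permutation p = 0.00063) and Spearman's rho = 0.891 (permutation p = 0.00126), the only relation computed. Without mice 20 and 19, the tumours farthest from the median, r was 0.816 (n = 8). A slide held 3 or 4 arrays, too few for a value within slides, and the part of T-cell content in the relation was not tested.

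Of 41 genes of receptor signalling, from the CD3 chains to kinases, adaptors and co-receptors, 40 were tested and 0 passed an adjusted p of 0.05. Of these 40, 12 were higher and 28 lower in +/L, with a median difference of -0.20. Over all tested probes 49.5% were lower, with a median difference of 0.01. The count of lower means was 12 of 40 without mouse 20 and 18 of 40 without mouse 19. At an unadjusted p under 0.05 there were 0 higher (3.29% of all tested probes) and 3 lower (4.67%). Mouse 20 was the lowest tumour at 30 of the 40 genes (14.7% of all tested probes) and mouse 19 the highest at 22 (4.98%). The CD3 and ζ chain genes differed by -0.43 (Cd3d), -0.78 (Cd3e), -0.49 (Cd3g) and -0.50 (Cd247), with limma adjusted p of 0.70 to 0.90. The proximal kinases Lck and Zap70 differed by -0.51 and -0.75 (limma adjusted p = 0.87 and 0.79). The lowest p in this list belonged to Vav1, an exchange factor downstream of the receptor, at 3.44 ± 0.16 (SD, n = 5) in +/L and 4.02 ± 0.29 (SD, n = 5) in +/+ tumours (difference -0.58, limma adjusted p = 0.59). Among higher means the lowest p belonged to Ctla4, an inhibitory co-receptor (0.55, limma adjusted p = 0.74), and Trat1, an adaptor of the receptor complex (0.84, limma adjusted p = 0.77).

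Among genes of receptor assembly, Ptcra, Rag1 and Rag2 were not well above background in most tumours, while Dntt was. Dntt, the enzyme that adds bases at receptor joints, was well above background on 10 of 10 arrays, from -2.52 in mouse 20 to 1.27 in mouse 19, and differed by -0.66 between genotypes (limma adjusted p = 0.87). Ptcra, the pre-T-cell receptor α chain that pairs with β in immature thymocytes, was well above background in +/L mice 866 and 688 only. Rag1, part of the recombinase that joins the segments, was well above background in mouse 866 alone, and its partner Rag2 on 0 of 10 arrays. Mouse 866, the tumour with high X67128, was also the lowest tumour at 8 of 11 B-cell marker genes (14.9% of all tested probes). Its B-cell score was -1.75, against -0.80 to 1.02 in the others. Mouse 20 was the highest tumour at 5 of 6 plasma-cell marker genes (28.3% of all tested probes), with a score of 1.88.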

How the data were processed

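RNA of 10 lymphomas was hybridised to 1-colour (Cy3) Agilent arrays. Per the file headers, the authors used Feature Extraction 10.5.1.1 to obtain the intensity of each spot. Set against the scanner values, the deposited value table is on a log2 scale, with array medians of 6.96 to 6.97. Its background method and offset are not given in the sources used here. Levels are log2 processed signals from which the 75th percentile of the array, controls left out, was subtracted. Control spots and outlier-flagged spots were left out, spots of a probe averaged, and the 26410 probes with 3 or more arrays well above background were kept. Genotypes were compared, probe by probe, with limma 3.58.1 in R 4.3.3 (lmFit, eBayes, Benjamini-Hochberg over all kept probes, threshold 0.05). Single probes also had an exact permutation test over the 252 splits, whose smallest p is 0.00794. On simulated data for this comparison (26410 probes, 200 changed) 0% of probes changed by 1, 55.2% by 2 and 78.7% by 3 log2 units were recovered.

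Slides came from the barcodes in the headers, which differ from the description labels for mice 866 and 17. The labels group mouse 866 with mice 20, 40 and 688, and mouse 17 with mice 101 and 19. In the headers the places of 866 and 17 are exchanged. Whether the arrays of these mice, of different genotype, were themselves exchanged was not tested. Their values are given under the mouse of the sample title. Slide 3 (mice 866, 101 and 19) stands for the arrays whose header held no barcode. That these arrays shared a slide is therefore an assumption. The slides held 2, 2 and 1 +/L and 2, 1 and 2 +/+ arrays. The mice carry separate numbers and were taken as separate animals. The members and gene lists were chosen with earlier results of these data known. A gene of a list was read by its brightest kept probe. Of the probes, the text names all constant ones, per tumour up to 2 variable ones with the largest excess over the median where that tumour was highest, and the 3 of lowest p per direction; of the signalling list it names the CD3 and ζ genes, Ptcra, Lck, Zap70 and the 2 of lowest p per direction, of which 1 is not reported here. Other probes, Rag1, Rag2, Dntt and the γδ genes were chosen after their values were seen. Alternatives changed the scaling, background correction with normalization (normexp, offset 50), filter, slide block, age, variance model, value table and set of arrays. T-cell, thymocyte, B-cell, plasma-cell, NK-cell, γδ and macrophage marker lists were scored per tumour.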

Additional observations from a re-analysis of the deposited data

Results flagged for a closer look

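Among 17 named receptor probes, each examined in both genotypes (34 groups of 5 tumours), 1 value stood apart from the rest of its group by Dixon's criterion. Chance gives about 1 in 20 groups, a rate that does not hold for X67128, which was named for its excess in this same tumour. The β variable probe X67128 was at 0.19 in +/L mouse 866, and the nearest +/L tumour was at -2.59, a gap of 0.78 of the group's whole range against a critical value of 0.71. The probe was well above background on all 10 arrays.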

How the results depend on the processing

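With 5 tumours a group, changes of 1 log2 unit were not recovered in simulation, so differences of this size were not detectable, and dim probes give no order. The number of receptor probes past the threshold stayed at 0 in all alternatives run. All probes past it numbered 1 with normexp and quantile normalization and 1 in the authors' deposited table, and 0 to 3 when leaving out each tumour (3 without mouse 517). The receptor probes' median difference was -0.35 to 0.17 when leaving out each tumour, 0.11 with the slide block and -0.82 with age, against -0.16. The variable probes with a tumour standing apart numbered 0 with normexp and quantile normalization and 0 in the deposited table. They numbered 15 at 1 log2 unit (38.2% of all probes) and 3 at 3 log2 units (11.3%). The cause of these changes was not tested.

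Signs turned for AK018014 with normexp (-0.016) and in the deposited table (-0.016), and there also for Trbc1 (0.039) and Trbc2 middle (0.025). With age they turned for Trbv5 upstream (-0.19) and Trat1 (-0.13). Without mice 20 and 11 they turned for Trbc1 (0.030), Trbc2 middle (0.094), Trbc2 start (0.044) and Lck (0.036). Leaving out each tumour gave -0.54 to 0.25 for Trbc1, -0.54 to 0.30 for Trbc2 middle, -0.55 to 0.29 for Trbc2 start, -0.76 to 0.12 for Cd3d, -0.88 to 0.13 for Cd247 and -0.84 to 0.014 for Lck; the 3 probes turned without mice 20 and 19, the 3 genes without mouse 20. Scaling to the median, the other filters, the slide block and the variance model turned 0 signs of the probes and genes named, although the slide block turned that of the receptor probes' median. No paired analysis was possible because the genotypes share no mouse numbers.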

Other observations

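The NK-cell marker score (7 genes) spanned -0.27 to 0.66 among +/L tumours and -0.96 to 0.67 among the +/+ ones, lowest in mouse 11 and highest in mouse 101, and 0 of its genes passed. The macrophage score (5 genes) was lowest in mouse 517, at -2.43, and highest in mouse 40, at 1.27. All 5 macrophage genes had lower means in +/L (49.5% of all tested probes). Of them 2 were lower at an unadjusted limma p under 0.05 (4.67% of all tested probes), and 0 passed after adjustment (lowest limma adjusted p = 0.59). The 2 were C1qa and C1qb, both lowest in mouse 517, at 3.23 and 1.94. Of 5 thymocyte markers 2 were tested, and both were highest in mouse 19 (highest at 4.98% of all tested probes).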
